A study of Saccharomyces cerevisiae with 4 samples.

Results

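The 34 genes described here encode the 26S proteasome of budding yeast and its transcription factor. They were chosen by systematic gene name: 14 genes of the 20S core particle, 6 ATPase genes and 13 non-ATPase genes of the 19S regulatory particle, which make 33 subunit genes, and *RPN4*. All 34 were among the 6673 genes listed in each library, and all passed the filter of a mean RPKM (reads per kilobase of gene, scaled to the reads of the library) of at least 1. The RNA-seq libraries comprised 2 replicates of the wild type (WT) and 2 of a strain deleted for *PUF3* (*PUF3Δ*), the gene of an RNA-binding protein that promotes decay of its target mRNAs. Both strains were inoculated from an overnight YPD culture into YPEG, in which ethanol and glycerol are the carbon sources and cells respire, and were harvested in growth. The labels name the background BY4742, with the alleles *his3Δ1*, *leu2Δ0*, *met15Δ0* and *ura3Δ0* and mating type a for both strains, whereas the text of the study names BY4741. Libraries were made from oligo-dT purified RNA. The sources do not say whether the replicates were separate cultures or how many clones of the deletion were used, so p-values measure the spread between these libraries, which may be technical.

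The proteasome is the protease that degrades ubiquitin-tagged proteins. Its 20S core is a barrel of stacked rings, in which the α rings control entry and the β rings carry the active sites, and the 19S particle at its end recognises, unfolds and feeds in the substrate. The subunits are needed in fixed proportions, and in yeast most of their genes share a promoter sequence, the proteasome-associated control element GGTGGCAAA, to which Rpn4 binds. Rpn4 is itself a very short-lived protein that the proteasome degrades, which closes a feedback loop in which protein stability, not measured by RNA-seq, plays a large part.

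Between 6703910 and 8228693 reads per library fell on listed genes. Members had between 209 and 3929 reads in a library. Counting noise did not account for the spread within a strain: over all genes the chi-square per degree of freedom between replicates was 11.8 in WT and 4.64 in *PUF3Δ*, and over the members 6.33 and 3.34. The 2 *PUF3Δ* libraries held 2 and 6 reads on *PUF3*, where the WT libraries held 569 and 761. MF(ALPHA)1, a gene of alpha cells, had an RPKM of 1662 or more in each of the 4 libraries, while STE2, a gene of a cells, had at most 15.4, which goes against the labelled mating type for both strains. In bulk RNA, fewer cells that express a gene and less of its RNA per cell cannot be told apart.

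The core and ATPase genes were expressed within a narrow band, and the non-ATPase genes held the highest and the lowest levels of the complex. In WT the RPKM, which is per length, ran from 162 to 327 over the 14 core genes and from 119 to 285 over the 6 ATPase genes. Over the 13 non-ATPase genes it ran from 78.0 to 547. SEM1 (YDR363W-A), a small acidic lid protein encoded by the shortest gene of the complex, was at 519 and 576 in the WT replicates, and RPN10, a receptor for ubiquitin chains, at 447 and 429. These were the highest levels among the subunits, and they did not overlap each other. RPN1, a scaffold subunit, was the lowest at 76.8 and 79.2, next to RPN9, a structural lid subunit, at 89.8 and 79.2, with overlap between them. In *PUF3Δ* the order at both ends differed: RPN10 was highest, at 379 and 373, above SEM1 at 314 and 325. RPN13, another ubiquitin receptor, was lowest at 66.1 and 70.5, overlapping RPN9 at 77.5 and 70.3, while RPN1 lay above both at 105 and 100.1. Among all genes tested the members fell between percentile 58.0 (RPN1) and percentile 94.2 (SEM1) in WT, averaged over the replicates.

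**Figure D1:**
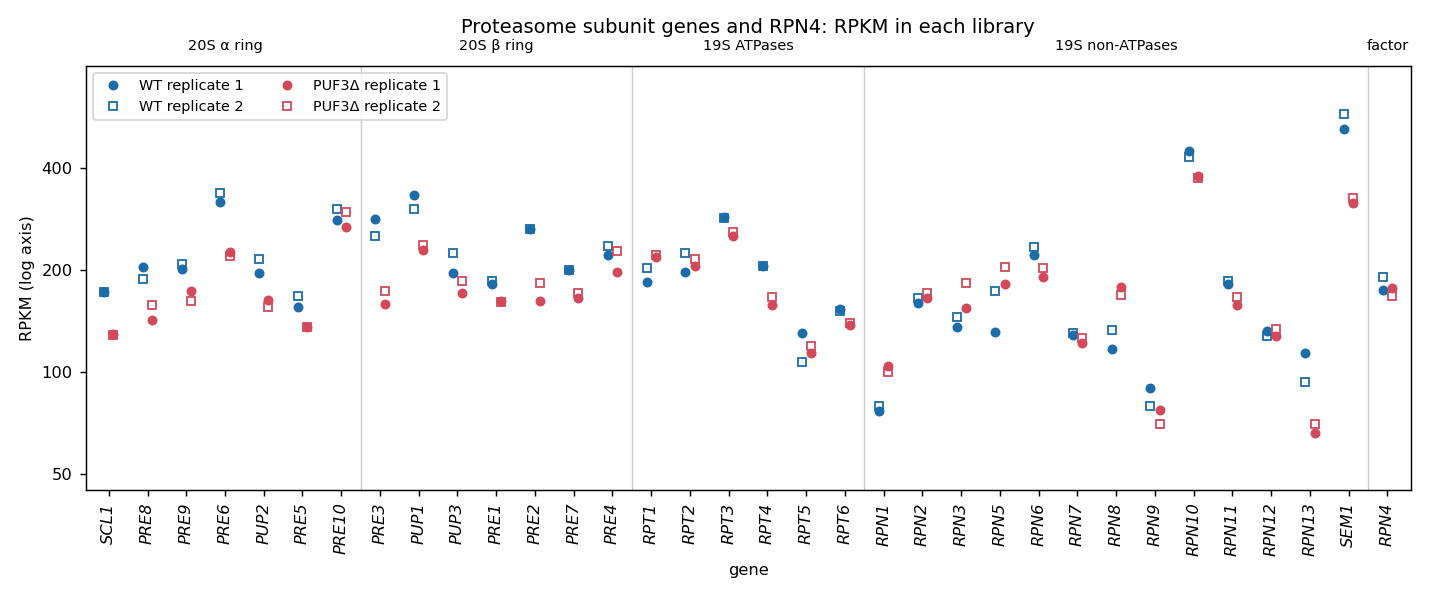
RPKM (log axis) of each subunit gene and of RPN4 in the WT (blue) and PUF3Δ (red) libraries, filled circles for replicate 1 and open squares for replicate 2. SEM1 (314 to 576) and RPN10 (373 to 447) stand above the other genes, and RPN1, RPN9 and RPN13 lie at the bottom, with RPN1 alone of these 3 higher in both PUF3Δ libraries.

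The strains were compared for each gene on log2(RPKM + 1) with limma, over 5860 genes, at a Benjamini-Hochberg adjusted p under 0.05. All limma p-values below are adjusted over these genes. As deposited, 15 of the 34 members (44.1%) were lower in *PUF3Δ* and 2 (5.88%) were higher, RPN8 and RPN1. Of all genes tested, 54.2% were lower and 18.9% higher. The RPKM of the strains did not overlap for 22 members on the lower side and 5 on the higher side, beside 62.6% and 24.9% of all genes. The median log2 fold change of the 33 subunits was -0.19, while that of all genes was -0.39, so 26 of the subunits lay above the median gene. The direction of such small changes depends on the scaling. Scaling the libraries by the median of ratios moved the median of all genes to -0.01, and then 17 members were higher and 3 lower (background 33.9% and 33.1%). Calls in the same direction under both scalings were those of RPN8 and RPN1, higher, and of PRE3, PRE2 and SEM1, lower. These are 5.88% and 8.82% of the members, below the 18.9% and 33.1% of all genes with such calls. Without either *PUF3Δ* library fewer members were called lower, and so were fewer of all genes. Without replicate 2 of WT more members were called higher, and so were more of all genes. These fits leave 1 library of a strain. The median over the 33 subunits was -0.18 without replicate 1 of *PUF3Δ*, -0.21 without its replicate 2 and -0.17 without replicate 2 of WT.

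**Figure D2:**
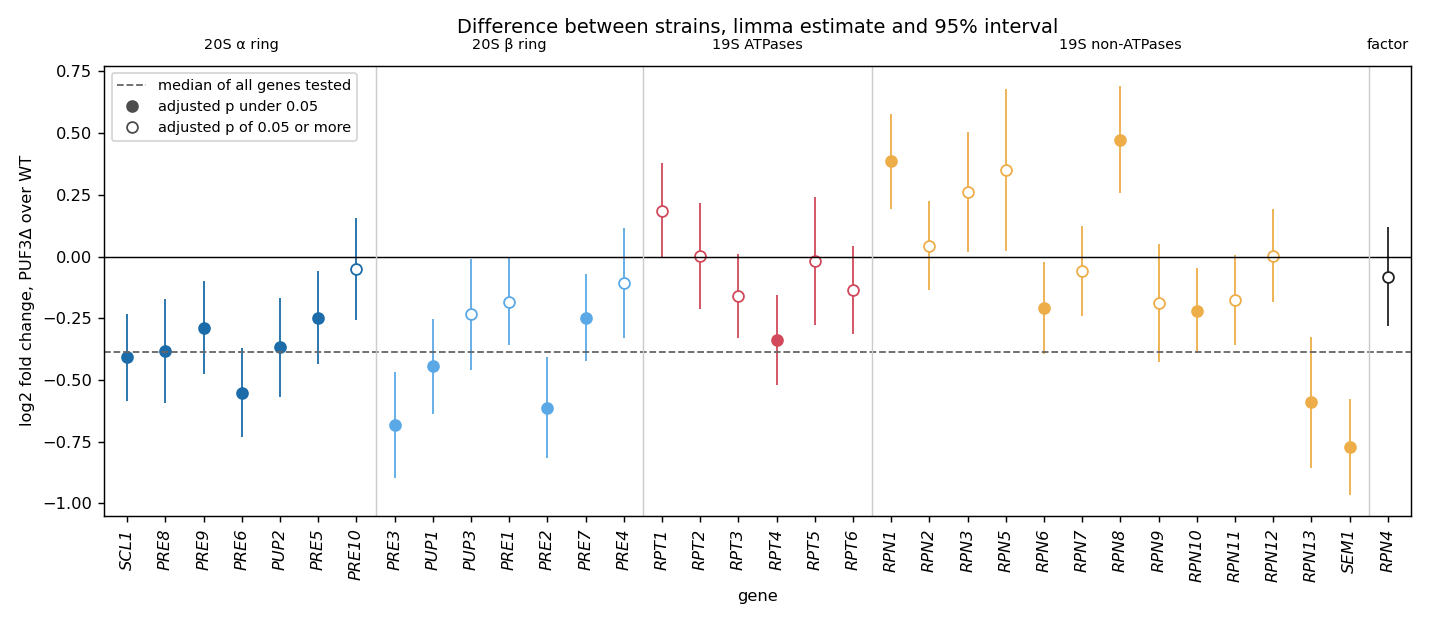
Log2 fold change of PUF3Δ over WT with its 95% interval from limma (n = 2 libraries per strain), filled where the adjusted p was under 0.05. The 20S genes all lie below 0, the ATPase genes between -0.34 and 0.19, and the non-ATPase genes from -0.77 (SEM1) to 0.47 (RPN8), with the dashed line at the median of all genes, -0.39.

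In the core particle every gene had a negative log2 fold change as deposited, as did 4059 of all 5860 genes tested. Of the 14 core genes 10 (71.4%) were lower, beside 54.2% of all genes, and their median lay 0.06 above the median gene. With the length correction introduced further on, 8 core genes were higher and none lower (32.6% and 31.9% of all genes). In the α rings 6 of 7 genes (85.7%) were lower in *PUF3Δ* as deposited. PRE6 (YOL038W, α4) had an RPKM of 317 and 338 in WT and 226 and 219 in *PUF3Δ*. Its log2 fold change of -0.55 (SE 0.08, adjusted p = 0.00055, limma) was the lowest of the α genes. Relative to the median gene it was -0.17, and under median-of-ratios scaling it did not pass (log2 fold change -0.16, adjusted p = 0.10, limma). SCL1 (YGL011C, α1) had 172 and 172 in WT and 130 and 129 in *PUF3Δ*, a log2 fold change of -0.41 (SE 0.08, adjusted p = 0.0021). The highest of the α genes was PRE10 (α7), with 281 and 303 against 267 and 296. Its replicates overlapped between the strains, and its log2 fold change was -0.05 (95% interval -0.26 to 0.16). PRE5 (α6), with 156 and 167 in WT and 136 and 136 in *PUF3Δ*, had the next highest value, -0.25 (SE 0.08, adjusted p = 0.026). PRE9 (α3), the core subunit that yeast can live without, had -0.29 (adjusted p = 0.013). The median of the α genes was -0.37. The calls of PRE8, PRE9, PRE5 and PUP2 did not hold in each fit without 1 library: adjusted p was 0.072 for PRE8 without replicate 1 of *PUF3Δ*, 0.062 for PUP2 without its replicate 2, 0.051 and 0.12 for PRE9 without either, and 0.13 and 0.12 for PRE5 without either and 0.060 without replicate 2 of WT.

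Of the 7 genes of the β rings 4 (57.1%) were lower in *PUF3Δ*, near the 54.2% of all genes. They were PRE7 and the 3 genes whose products carry the active sites. PRE3 (YJL001W, β1), the subunit with caspase-like activity, had an RPKM of 282 and 252 in WT and 159 and 173 in *PUF3Δ*. PRE2 (YPR103W, β5), with chymotrypsin-like activity, had 263 and 265 against 162 and 183. PUP1 (YOR157C, β2), with trypsin-like activity, had 333 and 303 against 230 and 237. For each the *PUF3Δ* libraries were below both WT libraries, with log2 fold changes of -0.68 (SE 0.09, adjusted p = 0.00042, limma) for PRE3, -0.61 (SE 0.09, adjusted p = 0.00058) for PRE2 and -0.45 (SE 0.08, adjusted p = 0.0021) for PUP1. Relative to the median gene PRE3 was at -0.30, PRE2 at -0.23 and PUP1 at -0.06. The non-catalytic PRE4 (β7) was highest in the group, with 222 and 235 in WT and 197 and 228 in *PUF3Δ*, which overlap. Its log2 fold change was -0.11 (95% interval -0.33 to 0.12). PRE1 (β4) had -0.18 and PUP3 (β3) -0.23, and neither passed the test (adjusted p = 0.058 and 0.059), although PUP3 did without replicate 1 of WT (adjusted p = 0.012). PRE7 (β6) had -0.25 (adjusted p = 0.020), a call that was lost without either *PUF3Δ* library (adjusted p = 0.14 and 0.088). PRE3 is the only member with an intron in R64, and its RPKM is over the 765 bases of the listed span, of which 648 are coding.

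Among the 6 ATPase genes, whose products form the ring that unfolds substrates, only RPT4 passed the test as deposited. That is 16.7% lower and none higher, beside 54.2% and 18.9% of all genes. RPT4 had an RPKM of 206 and 206 in WT and 158 and 167 in *PUF3Δ*, a log2 fold change of -0.34 (SE 0.08, adjusted p = 0.0057, limma), and the call was lost without replicate 1 of *PUF3Δ* (adjusted p = 0.068). RPT1 went the other way, with 184 and 202 in WT and 218 and 221 in *PUF3Δ*. Both its *PUF3Δ* values exceeded both WT values, but its log2 fold change of 0.19 had an adjusted p of 0.074, and of 0.023 without replicate 2 of WT. RPT1 overlaps another listed gene, YKL145W-A, and reads of the pair could have been counted for either. RPT2, with 197 and 224 against 205 and 216, and RPT5, with 130 and 107 against 114 and 119, overlapped between the strains. Their log2 fold changes were 0.00 (95% interval -0.21 to 0.22) and -0.02 (-0.28 to 0.24). RPT3 had -0.16 and RPT6 -0.14. All 6 ATPase genes lay above the median gene, by 0.31 at the median. Under median-of-ratios scaling 5 of the 6 were higher and none lower, beside 33.9% and 33.1% of all genes. With the length correction introduced further on the counts were the same, beside 32.6% and 31.9%. RPT4 was not called in either. Under median-of-ratios scaling it was at 0.05 (adjusted p = 0.56, limma) and RPT1 at 0.58 (adjusted p = 0.00086).

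The non-ATPase genes were the least uniform group and held both ends of the range. RPN8 (YOR261C), the partner of the deubiquitinase RPN11 in the lid, had an RPKM of 117 and 133 in WT and 178 and 169 in *PUF3Δ*. This is 1.39-fold higher, with a log2 fold change of 0.47 (SE 0.09, adjusted p = 0.0027, limma), and it passed the test in each of the 4 fits without 1 library. RPN1 (YHR027C), the scaffold to which ubiquitin receptors and the deubiquitinase Ubp6 bind, had 76.8 and 79.2 against 105 and 100.1, a log2 fold change of 0.39 (SE 0.08, adjusted p = 0.0041). Without replicate 1 of *PUF3Δ* its adjusted p was 0.051. At the other end SEM1 had 519 and 576 in WT and 314 and 325 in *PUF3Δ*. That is 1.71-fold lower, a log2 fold change of -0.77 (SE 0.08, adjusted p = 0.00015). RPN13 (YLR421C), the ubiquitin receptor held by RPN2, had 114 and 93.7 against 66.1 and 70.5, a log2 fold change of -0.59 (SE 0.11, adjusted p = 0.0024). RPN13 and SEM1 passed the test without any 1 library, and they come from the shortest genes of the complex, 472 and 271 bases as listed.

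Between these ends lay the other lid and base genes. RPN5, with an RPKM of 131 and 174 in WT and 181 and 204 in *PUF3Δ*, and RPN3, with 135 and 146 against 155 and 184, are PCI-domain subunits of the lid. Both were higher in both *PUF3Δ* libraries, with log2 fold changes of 0.35 and 0.26, and both missed the threshold (adjusted p = 0.053 for each). They passed it with voom on reads (0.040 and 0.041) and without replicate 2 of WT (0.0023 and 0.044), and RPN3 also without replicate 1 of *PUF3Δ* (0.038). Without replicate 1 of WT the log2 fold change of RPN5 was 0.15. Under median-of-ratios scaling RPN5 and RPN3 were higher (0.74 and 0.65, adjusted p = 0.0032 and 0.0012, limma), as were 33.9% of all genes. They also passed under quantile normalization and with the length correction introduced further on. Under median-of-ratios scaling RPN10 and RPN6 were at 0.17 and 0.18 and did not pass. As deposited RPN10 had 447 and 429 against 379 and 373, a log2 fold change of -0.22 (adjusted p = 0.029). RPN6, the lid subunit that clamps the lid onto the core, had 222 and 233 against 191 and 203 and a log2 fold change of -0.21 (adjusted p = 0.046). The call of RPN6 was lost without either *PUF3Δ* library (0.27 and 0.11) and without replicate 2 of WT (0.0996), and that of RPN10 without either *PUF3Δ* library (0.13 and 0.16) and without replicate 1 of WT (0.059). RPN11, which removes ubiquitin chains from substrates, had 181 and 185 against 158 and 166 and a log2 fold change of -0.18 (adjusted p = 0.073). RPN2, RPN7, RPN9 and RPN12 had values between -0.19 (RPN9) and 0.04 (RPN2) and did not pass, though RPN9 did without replicate 2 of WT (adjusted p = 0.039).

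RPN4 (YDL020C) did not pass the test as deposited, and its call depended on the scaling. Its RPKM was 174 and 190.5 in WT and 177 and 167 in *PUF3Δ*, with overlap, means of 182 ± 11.4 and 172 ± 7.31 (SD, n = 2). The log2 fold change was -0.08 (95% interval -0.28 to 0.12, adjusted p = 0.41, limma) as deposited and 0.31 (SE 0.09, adjusted p = 0.017) under median-of-ratios scaling. With a correction for gene length it was 0.24 (SE 0.08, adjusted p = 0.040), and with quantile normalization 0.10 (adjusted p = 0.34). Like most subunit genes it lay above the median gene, by 0.30.

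Whether the subunits followed RPN4 was examined by the ratio of each subunit to RPN4 within a library, which does not depend on the scaling of the libraries. In WT the median ratio over the 33 subunits was 1.12 and 1.05, and in *PUF3Δ* 0.920 and 1.02. Relative to RPN4, 22 subunits were lower and 11 higher in *PUF3Δ*, and 17 of the 33 stayed within 0.2 log2 units of it. The median gene lay 0.30 below RPN4 in its log2 fold change, so most genes tested were lower relative to it. The median subunit lay 0.11 below it. The shares of all genes on each side of RPN4 were not computed. The ratio still depends on gene length: with the length correction introduced further on, 12 subunits were lower and 21 higher relative to RPN4, with SEM1 at -0.28, PRE3 at -0.32, PRE10 at 0.29 and RPN8 at 0.76 log2 units from it. With that correction RPN4 was at 0.24 and the median of all genes at -0.004. The ratio did not overlap between the strains for 17 subunits on the lower side and 6 on the higher side. Of the other genes tested, 56.9% had lower and 27.2% higher ratios to RPN4 without overlap. SEM1 had ratios of 2.98 and 3.02 in WT and 1.77 and 1.94 in *PUF3Δ*, the largest shift down. PRE3 followed, from 1.62 and 1.33 to 0.893 and 1.04. RPN8 had the largest shift up, from 0.670 and 0.698 to 1.001 and 1.01, so that its level came to that of RPN4. RPN1 moved from 0.441 and 0.416 to 0.589 and 0.599. Near RPN4 in their change were PRE10, PRE4, RPT5, RPT6 and RPN7, which had ratios that overlapped between the strains, with log2 differences from RPN4 between -0.06 (RPT6) and 0.06 (RPT5). For single ratios without overlap, the exact two-sided permutation test over the 4 libraries gives p = 0.333, the smallest possible with 2 against 2.

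**Figure D3:**
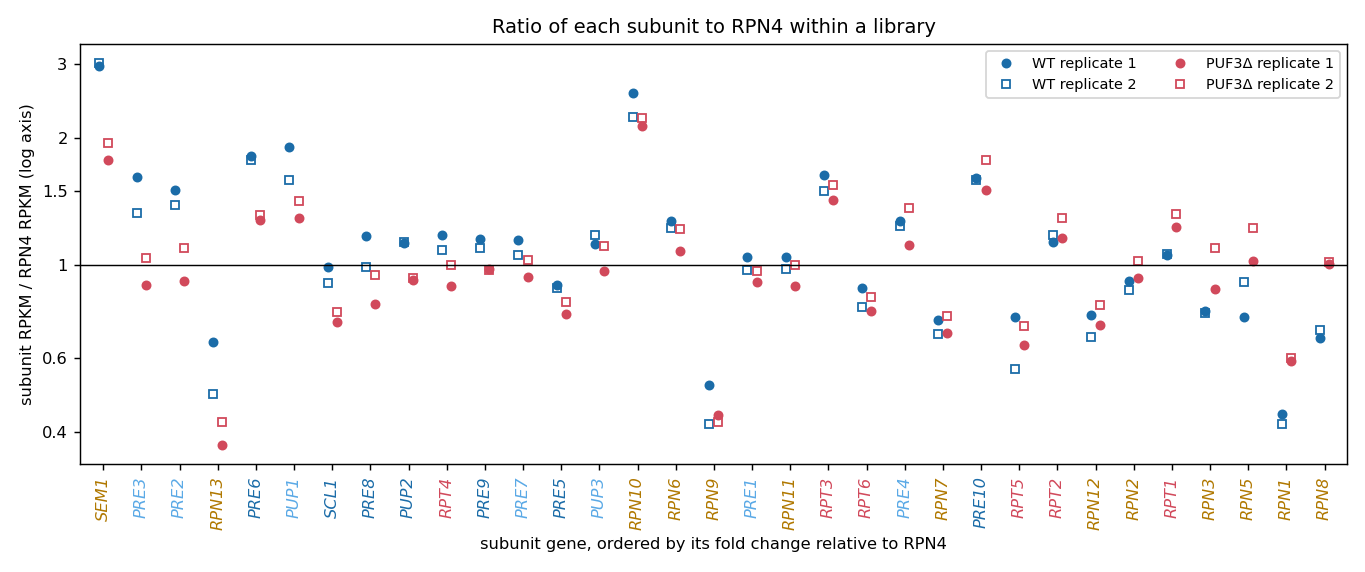
RPKM of each subunit divided by the RPKM of RPN4 in the same library (log axis), WT in blue and PUF3Δ in red, with subunits ordered by their fold change relative to RPN4. The 17 subunits with lower ratios in PUF3Δ without overlap, led by SEM1 and PRE3, are 12 core genes, RPT4 and 4 non-ATPase genes, and the 6 with higher ratios are RPT1, RPN2, RPN3, RPN5, RPN1 and RPN8.

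As a group the subunits changed more evenly than other genes did. The SD of the log2 fold change over the 33 subunits was 0.301, over all genes tested 0.851, and over the 1839 genes whose mean RPKM lay within the range of the members (79.2 to 433) 0.830. Between the replicates of WT the SD of the log2 difference over the same 33 genes was 0.139, and between those of *PUF3Δ* 0.0883, both below the SD between the strains. Within subcomplexes the SD was 0.156 for the α genes, 0.223 for the β genes, 0.178 for the ATPase genes and 0.369 for the non-ATPase genes. For the same 6 ATPase genes the SD between replicates was 0.163 in WT and 0.0275 in *PUF3Δ*. The SDs between replicates are of differences between single libraries. Those between strains are of differences between means of 2 libraries, so the measures are unlike. The non-ATPase spread came with the opposite positions of RPN8 and RPN1 on the one side and SEM1 and RPN13 on the other.

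In RPKM as deposited, the levels of the subunits were more alike in *PUF3Δ* than in WT. The coefficient of deviation (CD, the SD over genes divided by their mean) of the RPKM over the 33 subunits was 0.462 and 0.473 in the WT libraries and 0.360 and 0.359 in *PUF3Δ*. Without SEM1 and RPN10, left out after their values were seen, it was 0.343 and 0.341 against 0.280 and 0.294. On the log2(RPKM + 1) scale the SD over the subunits was 0.603 and 0.629 in WT and 0.507 and 0.524 in *PUF3Δ*, while over all genes tested it was 1.97 and 1.96 in WT and 2.08 and 2.08 in *PUF3Δ*. The medians of the core and the regulatory genes lay closer together in *PUF3Δ*. The median RPKM of the 20S genes was 203 and 220.2 in WT and 165 and 172 in *PUF3Δ*, while that of the 19S genes was 154 and 165 in WT and 158 and 169 in *PUF3Δ*. The ratio of these medians, which does not depend on the scaling, was 1.32 and 1.33 in WT and 1.04 and 1.02 in *PUF3Δ*. All core genes are short, so this ratio is also one between gene lengths. The CD and SD of the levels were not computed with the length correction introduced further on. With that correction the log2 fold change of SEM1, the shortest gene, was -0.04, against -0.77 as deposited. The study took CD after log transformation. On the log2(RPKM + 1) scale CD was 0.0797 and 0.0828 in WT and 0.0687 and 0.0706 in *PUF3Δ*.

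Gene length moved with the differences. Across the 33 subunits the log2 fold change as deposited was higher for longer genes (Spearman's rho 0.733 against log2 length), and rho was 0.350 across all genes tested. All points come from the same 4 libraries, and genes are not independent replicates. Within the 14 core genes, which span only 598 to 868 bases as listed, rho was -0.14, and within the 19 regulatory genes it was 0.617. The 18 subunit genes shorter than 900 bases had a median log2 fold change of -0.33, where all 2094 genes of that length had -0.66. Of the 18 genes 13 were lower and none higher, beside 54.2% and 18.9% of genes of all lengths. The shares called among all genes of each length class were not computed, so the calls by class are not read as a trait of the subunits. The 9 subunit genes of 1300 bases or more had a median of 0.04, with RPT4 and RPN6 lower and RPN1 higher, where all 2654 genes of that length had -0.12. In each of these classes, as in the one between them (-0.15 over 6 subunits, -0.52 over 1112 genes), the median of the subunits lay above that of all genes.

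A loess correction of each library for gene length therefore changed the calls. With it, 23 of the 34 members were higher in *PUF3Δ* and none lower (background 32.6% and 31.9%), and the median over the subunits was 0.31. The SD over the 33 subunits came to 0.235. RPN8 stayed at the top, with 0.99 (SE 0.10, adjusted p = 6.2e-05, limma), followed by RPN5 with 0.75. SEM1, PRE3 and PRE2, the genes lower under both scalings, were at -0.04, -0.08 and -0.04 and did not pass the test. RPN1 had 0.31 (adjusted p = 0.012). RPN8 and RPN1 were thus the only members higher as deposited, under median-of-ratios scaling, under quantile normalization and with the length correction, which held for 17.2% of all genes, and no member was lower in all 4, against 26.1% of all genes. Whether the length trend comes from the preparation of the libraries cannot be told apart from the strains, since each library holds 1 strain.

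**Figure D4:**
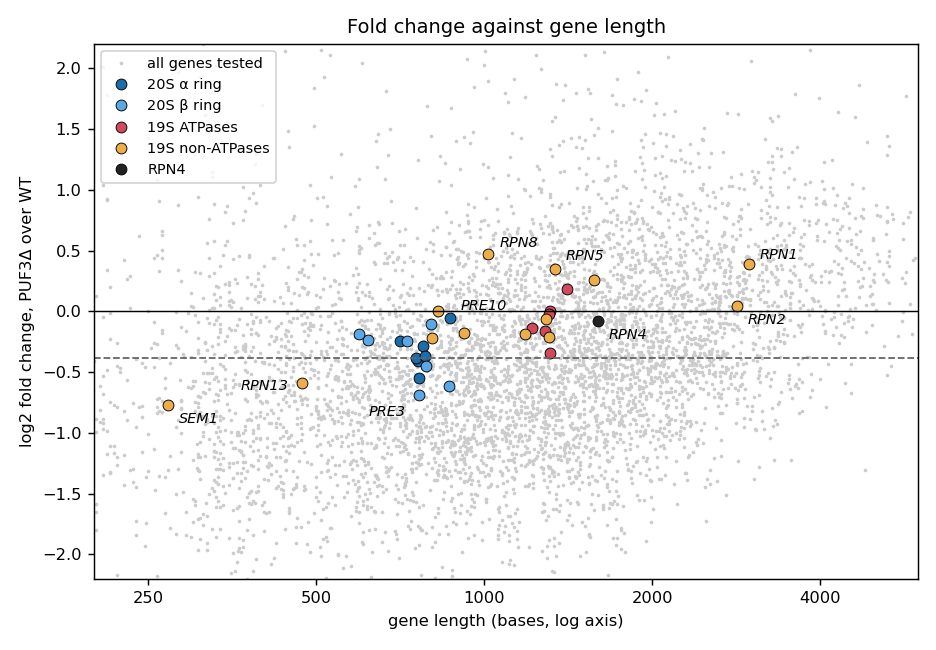
Log2 fold change of PUF3Δ over WT against gene length as listed (log axis, bases), with members coloured by subcomplex and all genes tested in grey (genes beyond the drawn range of the vertical axis are not shown). The dashed line is the median of all genes, -0.39. Members run from SEM1 (271 bases, -0.77) to RPN1 (2983 bases, 0.39), and the median of the subunits lies above that of all genes in each length class.

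The Rpn4 element was searched in the 300 bases before the start codon of each gene in R64, on both strands. GGTGGCAAA was present before 27 of the 33 subunit genes (81.8%), 1 match each, and before 73 of 6008 nuclear protein-coding genes (1.22%). RPN4 had none. It lay on the strand of the gene in 19 subunit genes and on the opposite strand in 8, and its nearer end was 76 to 175 bases from the start codon, with a median of 112. The sites of several genes described above are printed to show the strand of the element and the bases around it, with the element, which was found by exact match, in capitals, or its complement TTTGCCACC where it lies on the opposite strand.
PRE3, chrX:435029-435069, lower: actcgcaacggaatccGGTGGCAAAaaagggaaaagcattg
PRE2, chrXVI:732178-732218, lower: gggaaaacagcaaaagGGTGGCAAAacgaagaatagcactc
PRE6, chrXV:255212-255252, lower: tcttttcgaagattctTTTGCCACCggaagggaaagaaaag
PRE10, chrXV:1018850-1018890 (minus strand), overlapping: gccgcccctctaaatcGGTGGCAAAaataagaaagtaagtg
RPT4, chrXV:813796-813836 (minus strand), lower: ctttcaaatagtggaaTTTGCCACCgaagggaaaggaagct
RPT1, chrXI:174042-174082, not called: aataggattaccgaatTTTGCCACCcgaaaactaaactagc
RPN1, chrVIII:164832-164872 (minus strand), higher: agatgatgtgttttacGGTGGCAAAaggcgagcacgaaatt
RPN5, chrIV:190770-190810, not called: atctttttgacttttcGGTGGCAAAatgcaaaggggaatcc

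The genes without the full element included 3 of the 4 non-ATPase genes at the ends of the range. RPN8, PRE5 and PUP1 had only its last 8 bases, GTGGCAAA, which 159 genes (2.65%) have in this window, and these are shown because RPN8 had the highest fold change of the complex.
RPN8, chrXV:817079-817118 (minus strand): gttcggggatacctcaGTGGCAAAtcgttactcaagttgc
PRE5, chrXIII:901547-901586: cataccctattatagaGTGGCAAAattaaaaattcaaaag
PUP1, chrXV:631885-631924 (minus strand): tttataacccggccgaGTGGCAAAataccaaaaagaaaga

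SEM1, RPN13 and RPN10 had neither form in the window. Of the 6 subunit genes without the full element 1 was higher (RPN8) and 5 were lower as deposited, and of the 27 with it 1 was higher (RPN1) and 10 were lower (18.9% and 54.2% of all genes). The counts turned with the processing: under median-of-ratios scaling the 6 had 1 higher and 1 lower and the 27 had 15 and 2, and with the length correction the 6 had 3 higher and the 27 had 19, with none lower in either. Of all genes, 33.9% were higher and 33.1% lower under that scaling, and 32.6% and 31.9% with the correction. The SD of the log2 fold change was 0.433 over the 6 and 0.267 over the 27, and 0.367 and 0.204 with the length correction. The 27 had a median of -0.18, at 0.21 above the median gene. Outside the complex, 45 genes tested had the element, of which 21 were higher and 14 lower (46.7% and 31.1%, with 18.9% and 54.2% of all genes), with a median log2 fold change of 0.23 and an SD of 0.928. The SD over the 27 subunit genes was thus below that over these 45 genes, beside 0.851 over all genes tested. Under median-of-ratios scaling 29 of the 45 were higher and 8 lower, and with the length correction 27 and 8. The sets were unlike in level and length. Mean RPKM ran from 79.2 to 287 over the 27 and from 2.80 to 1132 over the 45. Listed lengths ran from 598 to 2983 bases and from 97 to 5608. Whether the element has a part in the difference was not tested. A match is a description of the sequence, and binding was not measured.

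**Figure D5:**
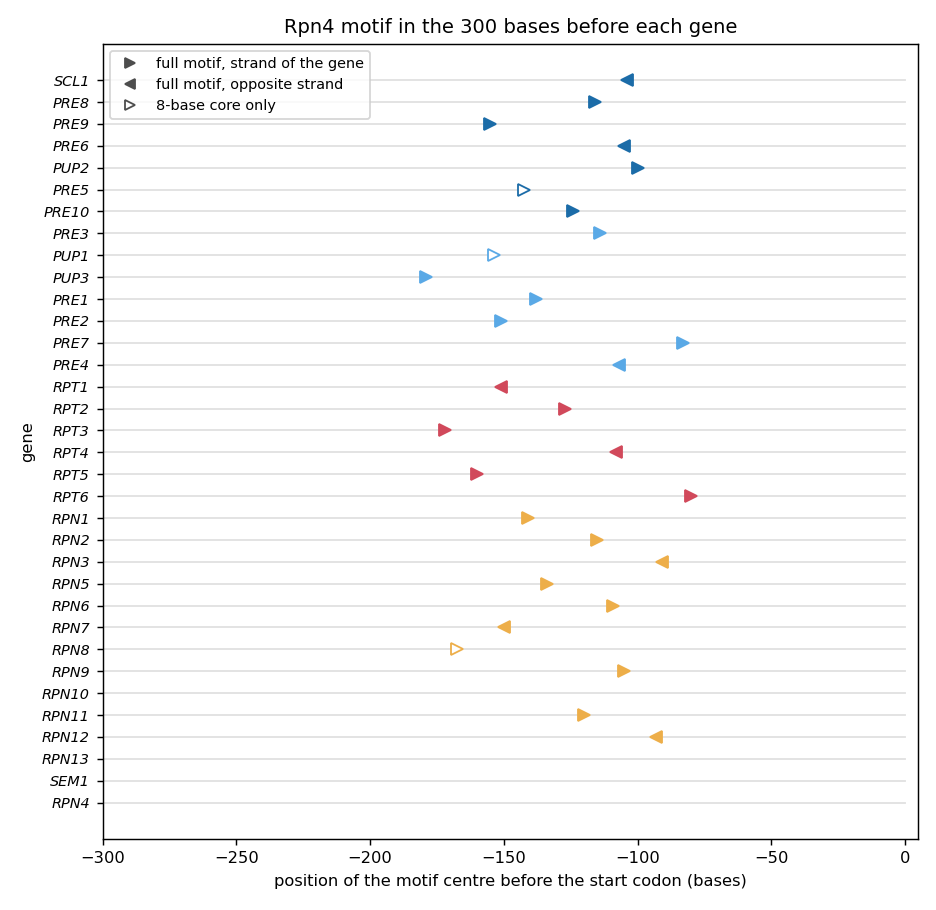
Position of the Rpn4 element before the start codon of each member (horizontal axis in bases, vertical axis genes by subcomplex), with the triangle pointing right for the strand of the gene and left for the opposite strand, filled for the full element and open for its last 8 bases. The filled elements end 76 to 175 bases before the start codon, and RPN10, RPN13, SEM1 and RPN4 have none.

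Puf3 binds the RNA element TGTANATA, with U for T in the RNA, downstream of the coding sequence of its targets. In the 200 bases after the stop codon, on the coding strand, 6 of the 33 subunit genes (18.2%) had this sequence: PRE8, PRE7, RPN2, RPN6, RPN12 and RPN13. Of all 6008 genes 14.0% had it. None of the 6 was higher in *PUF3Δ* as deposited, and 4 (66.7%, with 54.2% of all genes) were lower, PRE8, PRE7, RPN6 and RPN13. Under median-of-ratios scaling 2 of the 6 were higher and with the length correction 4, with none lower in either. Of all genes, 33.9% were higher and 33.1% lower under that scaling, and 32.6% and 31.9% with the correction. The median log2 fold change of the 6 was -0.23 as deposited, and that of the other 27 was -0.18. RPN13 is shown as the one among the extremes of the complex, with the element in capitals.
RPN13, chrXII:964911-964934 (minus strand): cataaataTGTATATAtggtctat

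Other genes of the pathway were taken from a list of 31: assembly chaperones and associated factors, ubiquitin supply and shuttles, and genes that act on RPN4. As deposited 13 were lower and 6 higher in *PUF3Δ* (54.2% and 18.9% of all genes), and 6 in each direction (19.4%) were called under both scalings (18.9% of all genes higher and 33.1% lower). The lowest 3 were chaperones of the α ring. POC4 had a mean RPKM of 59.3 ± 9.88 in WT and 18.6 ± 0.590 in *PUF3Δ* (SD, n = 2). Its partner IRC25 had 116 and 108 against 42.5 and 49.4. ADD66, of the second such pair, had 59.7 and 57.5 against 27.1 and 29.5. Log2 fold changes were -1.62 (SE 0.13), -1.27 (SE 0.10) and -1.03 (SE 0.10), and with the length correction -0.93, -0.61 and -0.43, all past the threshold. PBA1, the partner of ADD66, was at -0.67 (adjusted p = 0.00048, limma) and at -0.12 with the length correction (adjusted p = 0.28). UMP1, the chaperone of core maturation and far above the subunits in level, had 1282 and 1283 against 1054 and 1010, a log2 fold change of -0.31 (adjusted p = 0.0068), within the range of the α genes, and 0.37 with the length correction (adjusted p = 0.0036). Of the chaperones of the base, NAS2, RPN14 and HSM3 were lower as deposited (-0.59, -0.61 and -0.31), while NAS6 was at 0.18 (adjusted p = 0.12). With the length correction none of these 3 passed the test, and NAS6 was higher (0.80, adjusted p = 0.00019), as it was under median-of-ratios scaling (0.56, adjusted p = 0.0018).

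The highest of the list were SPG5, a proteasome factor of stationary phase, UBA1, the ubiquitin-activating enzyme, and CDC48, the ATPase that extracts ubiquitinated proteins. UBA1 had an RPKM of 88.3 and 93.2 in WT and 196 and 191 in *PUF3Δ*, a log2 fold change of 1.08 (SE 0.08). CDC48 had 261 and 262 against 439 and 433, a log2 fold change of 0.73 (SE 0.07). SPG5 had 1.47 (SE 0.08). These 3 passed the test under both scalings and with the length correction. BLM10, an alternative cap of the core, had 37.6 and 35.3 against 59.5 and 52.4, a log2 fold change of 0.60 (adjusted p = 0.0016, limma), which was 0.02 with the length correction (adjusted p = 0.90). UBI4, the polyubiquitin gene, whose repeats resemble other ubiquitin genes so that reads could have been assigned to either, had 170 and 183 against 222 and 193, a log2 fold change of 0.23 that did not pass (adjusted p = 0.060). It passed under median-of-ratios scaling (0.62, adjusted p = 0.0017) and with the length correction (0.70, adjusted p = 0.00050). The Rpn4 element was present before 5 of the 31 genes, and before 1.22% of all nuclear protein-coding genes. As deposited UBA1 and CDC48 of these 5 were higher, and UBI4, ECM29 and YAP1 were not called. The log2 fold change of ECM29 was 0.27 (adjusted p = 0.15, limma) and that of YAP1 -0.03 (adjusted p = 0.73). Of the 7 genes that act on RPN4, 2 were higher and 1 lower as deposited (18.9% and 54.2% of all genes). UBR2, the ubiquitin ligase for Rpn4, was higher (8.23 and 9.32 against 14.8 and 12.7, log2 fold change 0.59, adjusted p = 0.011, limma). PDR1 was also higher (0.25, adjusted p = 0.048). RAD6, the ubiquitin-conjugating enzyme of UBR2, was lower (72.0 and 73.4 against 42.5 and 42.6, log2 fold change -0.76, adjusted p = 0.00021). MUB1, YAP1, PDR3 and HSF1 were not called. With the length correction none of the 7 passed, with UBR2 at 0.10 and RAD6 at -0.10.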

How the data were processed

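Per the labels and the methods of the study, reads were mapped by SOAP2 with no more than 2 mismatches (build R64 in the labels), and the authors deposited 1 RPKM value per gene and library. Its version, the handling of multiply mapped reads and whether counting used strand are not given in the sources used here. RPKM times length in kilobases summed to 1000000 in each library, and all values (100%) came to whole reads within 0.05 reads, which were used for read numbers and for voom. Names, positions and sequences are from RefSeq's R64, joined by identifier. All 34 members matched, 4 of them at the coordinates of the files, and listed lengths count 1 base more than the R64 span. Positions are those of R64 alone.

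The strain comparison used limma (version 3.58.1, R 4.3.3; lmFit and trended eBayes) on log2(RPKM + 1), without a block, leaving out genes whose mean RPKM was under 1, and calls were made at an adjusted p (Benjamini-Hochberg) under 0.05. The pseudocount of 1 understates changes of low genes. On simulated reads of the comparison of *PUF3Δ* with WT (5860 genes, 200 changed by a log2 fold of 1), 97.5% were recovered with 13 false calls. The simulation used the same noise level for all genes and changed only genes above a set read number. It had no length trend and no shift of the median gene, so it does not measure the error of the calls reported here. Descriptions used Python 3.11.15 and scipy 1.17.1. Named genes were all members, of the pathway list the 3 largest changes each way and UMP1, UBI4 and BLM10. Members and lists were chosen with earlier results of these data known. PBA1, the base chaperones, ECM29 and the genes that act on RPN4 were named after their values were seen. No set test was run. Alternatives were other pseudocounts, filters, scalings, a loess correction for length (span 0.5), voom, a replicate block, other motif forms and windows, and leaving out each replicate.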

Additional observations from a re-analysis of the deposited data

How the results depend on the processing

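The pseudocount of 0.1 and a filter at a mean RPKM of 5 changed no call of the members, no filter added PRE1, RPT3, RPT6 and RPN11 to the lower calls (19), and scaling and length decided most directions. Without a filter, 2915 of all 6673 genes were lower. Members higher and lower in *PUF3Δ*, 2 and 15 as reported, were 17 and 3 under median-of-ratios scaling, 8 and 5 under quantile normalization, 23 and 0 with the loess correction for length, and 4 higher with voom. Pathway genes higher and lower, 6 and 13 as reported, were 16 and 6, 12 and 8, and 10 and 3 under the first 3 of these. Of all genes tested, 18.9% were higher and 54.2% lower as reported. Under the same 3 settings, in order, the shares were 33.9% and 33.1%, 31.9% and 34.2%, and 32.6% and 31.9%. With voom 1151 of all 5860 genes were higher. The median over the 33 subunits was 0.20, -0.040 and 0.31, and the SD 0.235 with the loess correction. RPN4 came to 0.31, 0.10 and 0.24.

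Log2 fold changes that were negative as reported turned positive under median-of-ratios scaling for PRE8 (0.0050), PRE9 (0.10), PUP2 (0.021), PRE5 (0.14), PRE10 (0.34), PUP3 (0.15), PRE1 (0.21), PRE7 (0.14), PRE4 (0.28), RPT3 (0.23), RPT4 (0.050), RPT5 (0.37), RPT6 (0.25), RPN6 (0.18), RPN7 (0.33), RPN9 (0.20), RPN10 (0.17) and RPN11 (0.21). Under quantile normalization the same held for PRE10 (0.057), PRE1 (0.0068), PRE4 (0.042), RPT5 (0.26), RPT6 (0.079), RPN7 (0.21), RPN9 (0.18) and RPN11 (0.014). With the loess correction it held for SCL1 (0.20), PRE8 (0.22), PRE9 (0.31), PRE6 (0.051), PUP2 (0.23), PRE5 (0.37), PRE10 (0.52), PUP1 (0.15), PUP3 (0.40), PRE1 (0.46), PRE7 (0.36), PRE4 (0.49), RPT3 (0.26), RPT4 (0.072), RPT5 (0.40), RPT6 (0.31), RPN6 (0.20), RPN7 (0.36), RPN9 (0.27), RPN10 (0.37), RPN11 (0.38) and RPN13 (0.084). By construction these settings recentre the fold changes, the last by gene length.

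Replicate numbers did not pair the libraries (correlation of their deviations -0.014), and with the replicate block 4 members were higher and 14 lower, as RPN3 and RPN5 entered and PUP3 replaced RPN6 and RPN10. With the block, 1067 of all 5860 genes were higher and 3117 lower. Leaving out each replicate gave a median over the subunits of -0.21 to -0.17, an SD of 0.280 to 0.335 and RPN4 between -0.14 and -0.02. The CD ratio of *PUF3Δ* to WT was then 0.760 to 0.779 (0.770 with all libraries, 0.857 on the log2 scale). Signs near 0 turned for PRE10 (-0.13 to 0.023), RPT2 (-0.091 to 0.097), RPT5 (-0.16 to 0.12) and RPN12 (-0.031 to 0.038). The Rpn4 element was present before 27 subunit genes also with 500 bases, added after the data were seen, and before 30 in its 8-base form. With 2 libraries per strain, changes of small size are limited by replicate spread more than by depth.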
